A study of Mus musculus with 3 samples.

Results

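The genes described here make or process the amyloid precursor protein. They are App itself, its homologues Aplp1 and Aplp2, the beta-secretase gene Bace1, the gamma-secretase genes Psen2 and Ncstn, and Apbb1, whose product Fe65 binds the cytoplasmic tail of the precursor. They were chosen by name from a list of 7 genes, and a probe set was taken where the platform annotation gave it exactly 1 gene. By that rule 5 of the 7 genes had a probe set, with 6 probe sets in all, out of 8251 genes and 10833 probe sets with 1 gene on the array. Bace1 and Ncstn had none and have no value here.

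Total RNA was taken from hippocampal area CA1 of C57BL/6J mice, a common inbred strain, all of them young males. The animals had been trained in contextual fear conditioning, in which a place becomes associated with a foot shock. After 2 min in an unfamiliar box they received a foot shock (0.5 mA for 1 s). This was done 3 times in all, and the tissue was collected 6 h after the last shock. The 3 arrays form 1 group without a control group, so the levels describe trained animals at 1 time and say nothing of an effect of training. Whether the animals behind each array were pooled is not stated in the labels, and part of the spread over arrays may be technical.

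Amyloid precursor protein is a transmembrane protein of neurons and other cells, and Aplp1 and Aplp2 share its extracellular domains and its short cytoplasmic tail. Alpha-secretase or beta-secretase first cuts it outside the membrane. Gamma-secretase, a complex of a presenilin, nicastrin, Aph1 and Pen-2, then cuts the remaining stub within the membrane, and after a beta cut this releases amyloid-beta. Aplp1 and Aplp2 are cut by the same classes of enzyme, and Fe65 binds the tails of the family.

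The label of the list holds in part. App, Aplp2, Psen2 and Apbb1 each had a probe set above 174.8 on every array, the median of all deposited values, which stands in for a detection call. Of all 12422 probe sets that are not array controls, 43.9% were above it on all arrays, and of all genes taken at their brightest probe set 52.9%. The family was thus measured through App and Aplp2, the secretases through Psen2 alone, and the adaptors through Apbb1. The tissue label was checked with CA1 pyramidal markers. All 4 with a probe set (of 8 listed), Wfs1, Pou3f1, Dcn and Man1a, were above the same level on every array. Of 6 excitatory neuron markers listed 5 had a probe set, and 4 were above that level on every array. The other, Camk2a, was under it on each array, at 44.9, 35.4 and 38.1 for its brighter probe set. Of 6 genes listed as dentate and CA3 markers 5 were above the threshold on every array too, Dsp, Calb1, Nptx1, Nnat and Bok. The dentate marker Prox1 was under it on each. The listed genes need not be confined to those areas, so these counts do not measure how much such tissue was present.

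The 250 bases before the annotated start of 3 members are shown, because Aplp2 and Apbb1 varied between the arrays in the same order and App did not. They are from RefSeq on GRCm38.p6, read 5′ to 3′ on the minus strand, and for Apbb1 the outermost of several starts was taken. Capitals mark the GC box GGGCGG or its reverse complement CCGCCC, the core of the site that Sp1-type factors bind.
App, chr16:85173708-85173957: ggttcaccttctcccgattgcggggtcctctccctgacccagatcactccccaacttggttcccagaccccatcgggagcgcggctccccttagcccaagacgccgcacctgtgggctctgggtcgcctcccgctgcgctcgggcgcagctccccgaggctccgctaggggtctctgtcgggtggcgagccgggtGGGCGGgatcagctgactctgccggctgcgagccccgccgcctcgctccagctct
Aplp2, chr9:31211849-31212098: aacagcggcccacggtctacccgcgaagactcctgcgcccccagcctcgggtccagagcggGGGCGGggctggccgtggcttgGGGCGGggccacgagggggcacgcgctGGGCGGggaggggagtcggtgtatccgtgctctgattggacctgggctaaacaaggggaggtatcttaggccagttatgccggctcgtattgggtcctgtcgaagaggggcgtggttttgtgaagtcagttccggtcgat
Apbb1, chr7:105581492-105581741: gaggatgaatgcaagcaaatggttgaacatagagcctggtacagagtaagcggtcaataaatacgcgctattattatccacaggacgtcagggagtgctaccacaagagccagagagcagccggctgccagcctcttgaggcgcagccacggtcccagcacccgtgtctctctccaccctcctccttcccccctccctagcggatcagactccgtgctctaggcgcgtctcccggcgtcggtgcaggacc
The Aplp2 window held 3 GC boxes and the App window 1, while this window of Apbb1 held 0. Another annotated start of Apbb1, with the window chr7:105568778-105569027, had 1. Among members not shown, the outermost window of Psen2, the least variable member, held 2, that of Aplp1 1 and that of Ncstn 0. A link between these windows and the spread between arrays was not tested. Over all 32851 such windows, 32.7% held at least 1. The motif TATAAA, searched on both strands, was in 0 of the 3 windows shown and in 12.4% of all. The windows held 23 CG dinucleotides for App, 22 for Aplp2 and 15 for Apbb1, against a median of 6 over all windows, and a GC content of 70.8%, 66.4% and 59.2% against a median of 52.4%. At other annotated starts of Apbb1, the windows chr7:105568778-105569027 and chr7:105569319-105569568 held 5 and 2 CG dinucleotides. Their GC content was 58.8% and 54.0%. The counts for Apbb1, of GC boxes and of CG dinucleotides, thus depend on the start chosen. A match of letters is a description of the window and does not show a bound site.

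App, the gene of the precursor itself, gave a high and rather even signal. Its probe set 93063_at read 32078, 27519 and 35024 on arrays 1, 2 and 3, a mean of 31540 ± 3781 (SD, n = 3 arrays). Array 2 was the lowest and array 3 the highest, 1.27-fold apart. In log2 terms, after the arrays were scaled to a common median, the range was 0.40, beside a median of 0.48 over all 6218 measured probe sets, those with a mean signal above 174.8. The SD of log2 signal was 0.20, and the SD that limma's trend gives for a probe set at this level was 0.19. The range of App depended on the scaling: it was 0.13 after quantile normalization and 0.18 after cyclic loess.

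Aplp2 was read by 2 probe sets that gave different pictures. The probe set 93498_s_at, whose suffix marks probes that may match more than 1 transcript, read 1030, 2234 and 1359 on arrays 1, 2 and 3, a mean of 1541 ± 622 (SD, n = 3 arrays). Array 2 was 2.17-fold above array 1 and 1.64-fold above array 3. The other probe set, 162224_r_at, read 38.1, 48.9 and 14.0, under the threshold on all arrays, so it gives no second reading of the difference between them. Its suffix marks a set built with relaxed probe rules.

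Aplp1 is expressed mainly in neurons, but its probe set 94874_at read 4.0, 14.7 and 13.1 on arrays 1, 2 and 3, with a mean of 10.6 ± 5.77 (SD, n = 3 arrays). All 3 values lay under 47.5, the 25th percentile of all deposited values. The order of the arrays at this level has no meaning, and a low signal of 1 probe set does not show that the transcript was absent.

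**Figure D1:**
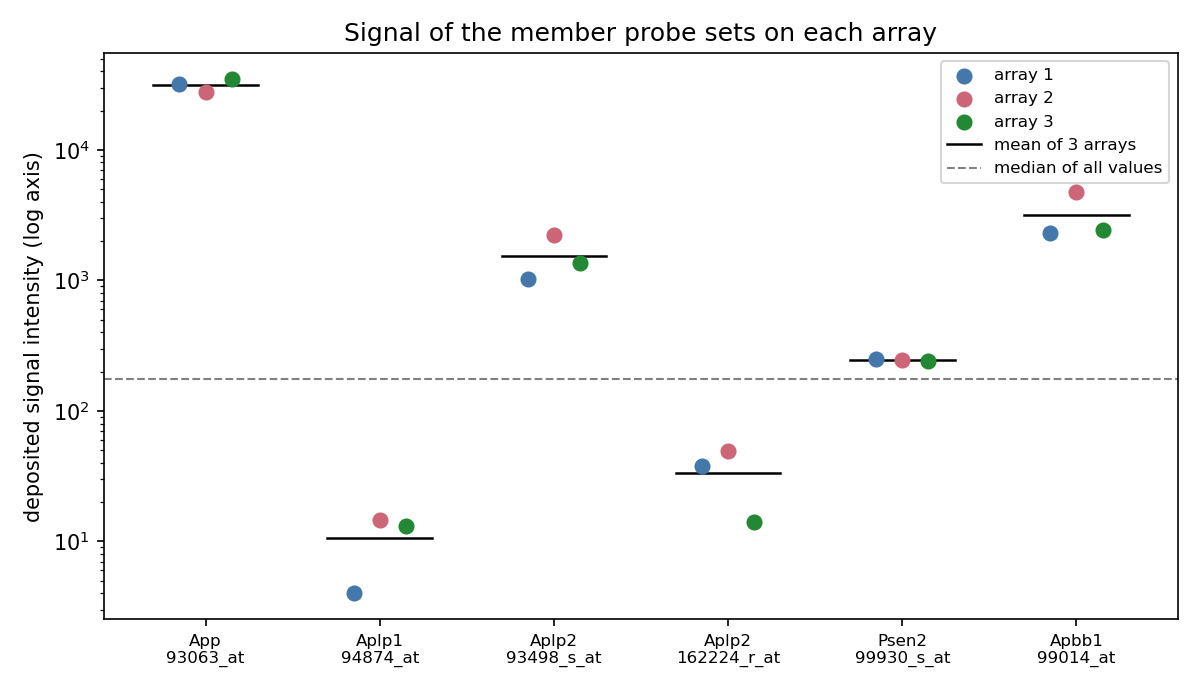
Deposited signal of the 6 member probe sets (log axis) on arrays 1, 2 and 3, with the mean of the 3 arrays as a bar and the median of all values, 174.8, as a dashed line. The 4 probe sets of App, Aplp2 (93498_s_at), Psen2 and Apbb1 lie above the line on every array, and those of Aplp1 and Aplp2 (162224_r_at) below it.

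Psen2, which encodes presenilin 2, a catalytic subunit of gamma-secretase, hardly differed between the arrays. Its probe set 99930_s_at also has the suffix for probes that may match more than 1 transcript. This probe set read 252, 247 and 240.2 on arrays 1, 2 and 3, a mean of 246 ± 5.69 (SD, n = 3 arrays), or a coefficient of variation of 2.31%. The log2 range was 0.032, and 0.289% of measured probe sets had a range that small or smaller. The SD of its log2 signal was 0.016, against 0.37 from limma's trend at this level. Under 7 alternatives in scaling, floor and filter the range stayed between 0.031 and 0.066, and between 0.010 and 0.029 when 1 array was left out.

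Apbb1 encodes Fe65, which binds the tail of the precursor protein and can carry the released fragment to the nucleus. Its probe set 99014_at read 2286, 4756 and 2441 on arrays 1, 2 and 3, a mean of 3161 ± 1383 (SD, n = 3 arrays). Array 2 stood apart, 2.08-fold above array 1 and 1.95-fold above array 3, while arrays 1 and 3 differed by 1.07-fold.

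**Figure D2:**
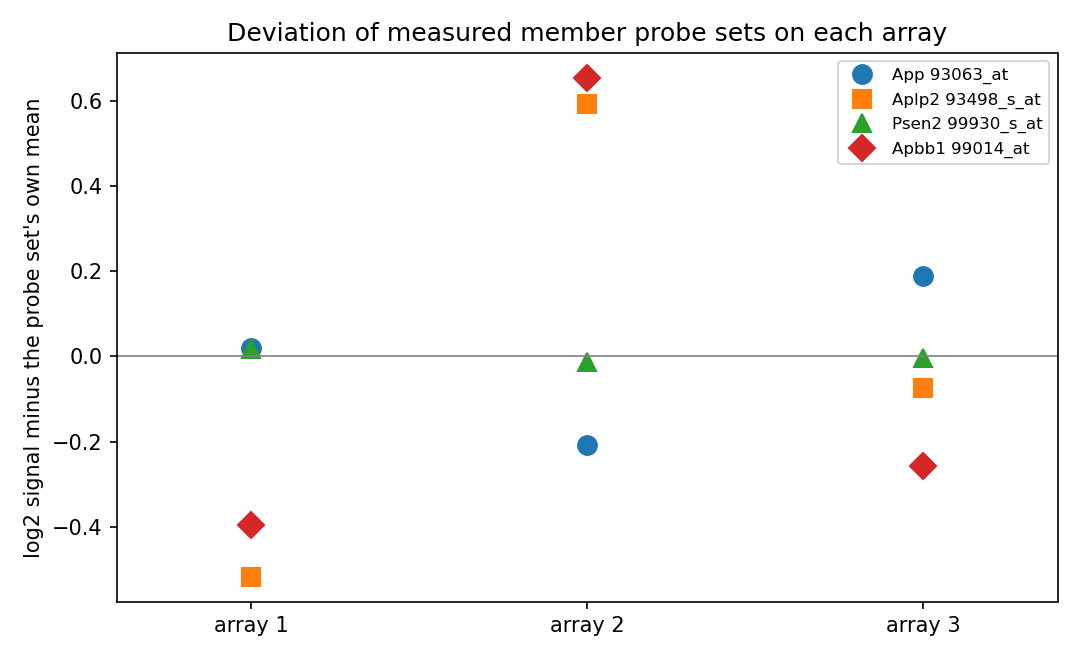
Log2 signal of the 4 measured member probe sets on each array, after scaling to a common median, minus the probe set's own mean over the 3 arrays. On array 2 Apbb1 lies at 0.65 and Aplp2 at 0.59, App at -0.21 and Psen2 at -0.014.

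Aplp2 and Apbb1 were the members more than 2-fold apart between arrays, 2 of the 4 measured, with log2 ranges of 1.11 and 1.05. Array 2 was highest for both, and it was highest for 35.4% of measured probe sets. Of all measured probe sets 12.1% were more than 2-fold apart, and 6.06% were so with array 2 highest. Both members were also more than 1.5-fold higher on array 2 than on each other array, as were 7.00% of measured probe sets. Against the expected variance at its level, neither member passed the variance test over all 6218 measured probe sets, with an adjusted p of 0.90 for both in limma. The count of members past it was 0 of 4 and that of all measured probe sets 1, or 0.0161%. That probe set had a log2 range of 5.45. With 3 arrays the test has little power for ranges near 1, so not passing does not show an ordinary spread. At an unadjusted p under 0.05 the same limma test gave 2 of 4, Aplp2 and Apbb1, against 5.21% of measured probe sets. The members were chosen with earlier results of these data known, so these counts do not show an excess. App and Psen2 had an adjusted p of 0.99 and 1.00 in limma. Without array 2 the log2 ranges were 0.45 for Aplp2 and 0.14 for Apbb1, so the spread of Apbb1 rested on that array. Without array 1 they were 0.67 and 0.91, and without array 3 1.11 and 1.05.

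**Figure D3:**
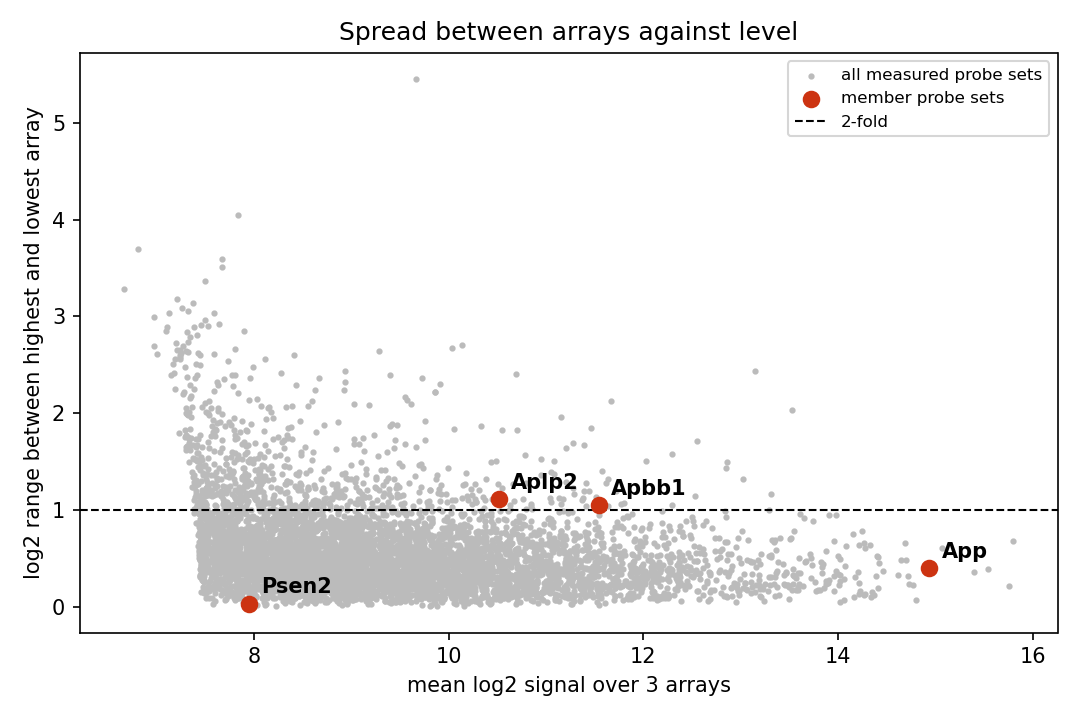
Log2 range between the highest and the lowest array against the mean log2 signal for the 6218 measured probe sets (grey) and the 4 measured member probe sets (red), with the 2-fold line dashed. Aplp2 (1.11) and Apbb1 (1.05) lie just above the line, App at 0.40 and Psen2 at 0.032.

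The Gapdh control probe sets and several cell type markers also differed on array 2. The Gapdh control probe sets gave a ratio of 3′ to 5′ signal of 3.99, 1.21 and 3.94 on arrays 1, 2 and 3, with 5′ signals of 9368, 28001 and 9670, a measure of how complete the labelled copies of a transcript were. The Actb ratio was 2.57, 1.86 and 3.50, also lowest on array 2. Its 5′ signals were 16086.5, 17218.2 and 5471.8, however, where array 3 stood apart and not array 2.

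For the cell type markers, the median log2 deviation of the measured genes on array 2 from their own means is given for each of 9 lists. It was 0.50 for choroid plexus and ependyma, with array 2 highest for 4 of 4 genes. It was 0.37 for dentate and CA3, highest for 3 of 5, and 0.32 for microglia, highest for 4 of 5. Over all measured genes array 2 was highest for 34.9%. Csf1r, the brightest gene of the microglia list, read 1616, 1266 and 2058 on arrays 1, 2 and 3, lowest on array 2. The microglia list summed to 3513, 4098 and 4109, highest on array 3. The median deviation was 0.20 for oligodendrocytes, 0.043 for interneurons and 0.018 for astrocytes. Each gene was taken at its brightest probe set, and other probe sets can differ. For the oligodendrocyte gene Mobp that set, 100536_at, was lowest on array 2, while its fainter sets 99046_at, 99047_at and 99048_g_at were highest there. The median deviation was -0.11 for CA1 pyramidal neurons, -0.31 for excitatory neurons and -0.34 for meninges and vessels, where array 2 was lowest for 4 of 5 genes. By these medians array 2 ran high for some lists and low for others.

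The summed signals of 2 lists rested largely on 1 gene each. The 6 choroid plexus and ependyma markers, of which 2 were above 174.8 on all arrays, summed to 3879, 7580 and 2360 on arrays 1, 2 and 3. Ttr, the transthyretin gene and the 1 measured probe set past the variance test, read 1334, 4257 and 94.2, and without it the sums were 2545, 3324 and 2266. The 6 dentate and CA3 markers summed to 3904, 8250 and 4423. Nnat read 1042, 4862 and 885 of this, and without it the sums were 2862, 3388 and 3538, highest on array 3. The part of the control ratios and of these markers in the signals of Aplp2 and Apbb1 was not tested. In tissue RNA, fewer cells of a type and less RNA per cell cannot be told apart.

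A second probe set could not be used to check the array 2 signal of Aplp2 or Apbb1. Among genes with several measured probe sets, 108 had at least 1 more than 1.5-fold higher on array 2 than on each other array. In 9 of these every measured probe set was, and in 99 at least 1 was not. Because the genes were picked for a probe set high on array 2, such a split was likely beforehand. The same count was not made for arrays 1 and 3. It therefore does not show whether the array 2 signals of Aplp2 and Apbb1 are particular to their probe sets. Bin1, an endocytosis adaptor linked to Alzheimer's disease and named here after its values were seen, is an example from the trafficking list. Its brighter probe set read 4563, 4872 and 4632 on arrays 1, 2 and 3, and its other 687, 2462 and 707.

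Each gene was next taken at the measured probe set whose pattern over the 3 arrays was closest to that of Aplp2, the member with the widest range. The most alike by this rule were Rfk, Slc27a1 and Gfra2. Rfk, the riboflavin kinase gene, read 174, 372 and 226 on arrays 1, 2 and 3 at this probe set. A brighter probe set of Rfk had another pattern, with log2 deviations of 0.10, 0.25 and -0.35 from its own mean. Slc27a1, a fatty acid transporter gene, read 332, 741 and 445, and Gfra2, a receptor gene for the GDNF family, 164, 351 and 221. On array 1 the values of Rfk and Gfra2 were under 174.8. Their deviations from their own mean differed from those of Aplp2 by a root mean square of 0.0080, 0.017 and 0.021 on the log2 scale. Of 4875 genes compared, 47 lay within 0.1. Apbb1 came at place 92 with 0.13, Psen2 at 2147 with 0.47 and App at 3321 with 0.58.

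Of 76 further genes of the pathway in 6 lists, 56 had a probe set, 38 were above 174.8 on all arrays and 40 had a mean above it. Among these 40, taken at the brightest probe set, 2 were more than 2-fold apart between arrays, Notch1 and Gga1, against 10.2% of all 4876 measured genes. Notch1 lay at the line, and without further scaling of the arrays the count was 1, Gga1. In limma 0 passed the variance test over all probe sets, against 0.0205% of genes, and 1, Gga1, had an unadjusted p under 0.05. The median log2 range was 0.37, beside 0.47 over all measured genes. Array 2 gave the highest signal for 16 of 40, against 34.9% of measured genes.

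In the list of other gamma-secretase genes 3 of 8 were measured, and 2 of them, Aph1a and Psenen, were above the threshold on all arrays. Aph1a, which encodes a scaffold subunit, read 299, 254 and 288 on arrays 1, 2 and 3. Psenen, the gene of the subunit Pen-2, read 545, 531 and 418. Hspa14, a chaperone-family gene placed in this list but not a subunit of the complex described above, read 160.0, 209 and 178. Their log2 ranges were 0.24, 0.34 and 0.38, against 0.032 for Psen2.

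Of 8 alpha-secretase genes and other genes of that step or of beta cleavage, 7 were on the chip and 4 above threshold on every array. Among the 4 measured, 0 were more than 2-fold apart, against 10.2% of all measured genes. Adam10, the main alpha-secretase of neurons, read 428, 359 and 497, and its second probe set 160.2, 180 and 110, in another order. Adam9 read 197, 185 and 231, while Adam17 was under threshold at 127, 28.0 and 35.5.

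At the brightest probe set of each gene, other adaptors and binding partners of the precursor stayed within 2-fold between arrays. The list held 16 genes, 13 of them on the chip and 11 above threshold on every array. Of 11 measured, 0 were more than 2-fold apart at the brightest probe set, against 10.2% of all measured genes. With so few genes a count of 0 says little of adaptors. The median log2 range was 0.33. Fainter probe sets of Mapk8ip1 and Klc1 had ranges of 1.12 and 1.21. Apbb2, a relative of Apbb1 that also binds the tail, read 363, 301 and 318 on arrays 1, 2 and 3, lowest on the array where Apbb1 was highest. The adaptor genes Apba2 and Apba3, of the X11 family, read 2532, 2554 and 2287, and 299, 242 and 306. None of these 3 genes was above its other arrays on array 2 by more than 1.5-fold, as Apbb1 was at its only probe set. The Klc1 probe set with the range of 1.21 was, at 466, 773 and 322 on arrays 1, 2 and 3. That of Mapk8ip1 with the range of 1.12 was lowest on array 2, at 431, 308 and 647.

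**Figure D4:**
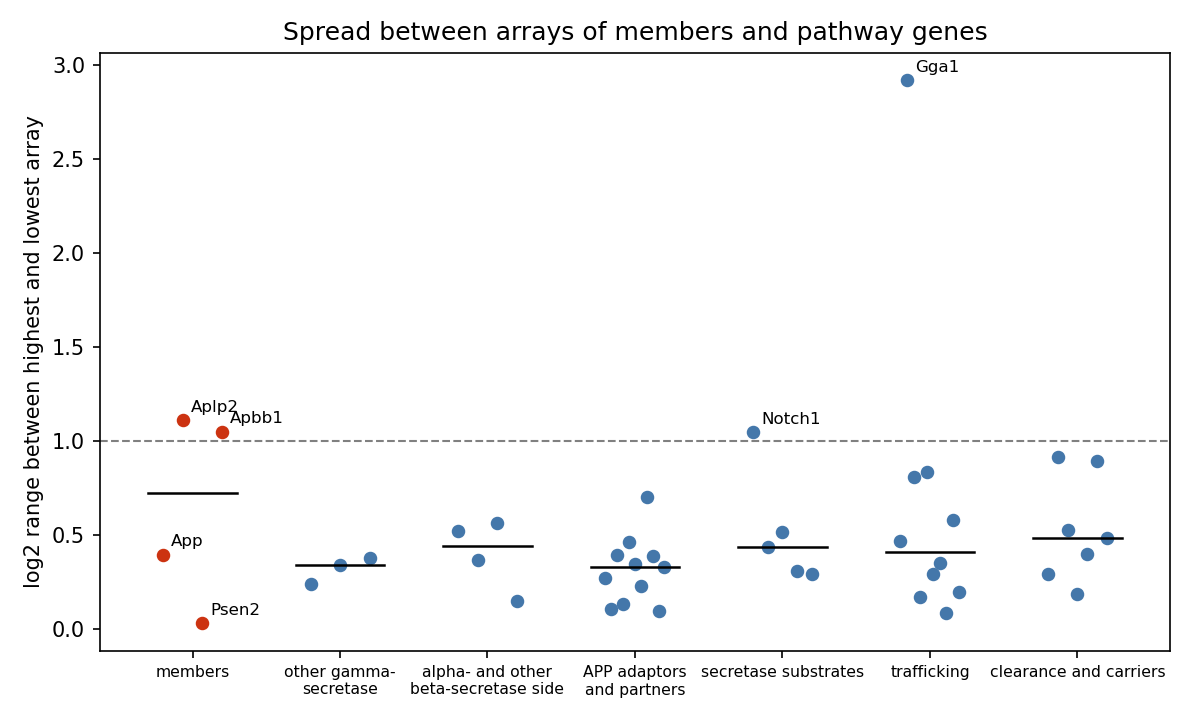
Log2 range between the highest and the lowest array for each measured gene of the member list (red) and of 6 pathway lists (blue), with the median of each list as a bar and the 2-fold line dashed. Beside Aplp2 and Apbb1, Notch1 (1.05) and Gga1 (2.92) lie above the line.

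The secretases also cut other membrane proteins, for which 15 genes were listed. Of these 10 had a probe set and 5 were above threshold on every array. The receptor gene Notch1 read 449, 307 and 613 on arrays 1, 2 and 3, lowest on array 2, and its second probe set 197, 312 and 142, in the opposite order. Notch2 read 266, 212 and 277 and Notch3 236, 264 and 179. The order of the arrays thus depended on the probe set for Notch1.

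For the traffic of the precursor and of beta-secretase 15 genes were listed, 11 had a probe set and 9 were above threshold on every array. Sorl1, a sorting receptor that binds the precursor protein, read 240, 276 and 193 on arrays 1, 2 and 3. Gga1 and Gga2 encode adaptors of transport between the Golgi and endosomes. Gga1 read 54.8, 416 and 346, under threshold on array 1, with an adjusted p of 0.64 in limma, and Gga2 463, 291 and 492. The wide range of Gga1 thus rests on a low signal on array 1.

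Genes of amyloid-beta clearance and its carriers passed the threshold on every array for 7 of 12 on the chip (14 were listed). Of 7 measured, 0 were more than 2-fold apart, against 10.2% of all measured genes. Mme, the neprilysin gene, an amyloid-degrading peptidase, read 11.0, 15 and 13.4 on arrays 1, 2 and 3, all under 47.5. Ide, the insulin-degrading enzyme gene, read 256, 219 and 203. Ece1, an endothelin-converting enzyme gene, read 447, 815 and 418. Array 2 was its highest, as for Apbb1, with a log2 range of 0.91 and an adjusted p of 0.97 in limma.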

How the data were processed

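The deposited values are linear signal intensities, 1 for each probe set on each array, with all 3 columns used and 0 columns of other samples. How the authors made and scaled the intensities is not stated in the labels or the file. With the top and bottom 2% left out, every array had a mean of 500.3. Of 12488 probe sets, 66 were controls. Of the rest 10833 had 1 gene in the platform annotation, 396 several and 1193 none, and symbols were updated through Entrez identifiers for 10817. For the spread, arrays were scaled to a common median by 0.991, 0.987 and 1.02, floored at 47.5 (the 25th percentile) and log2-transformed. The variance over arrays was compared, for each measured probe set, with a robust prior that depends on intensity, in limma 3.58.1 (R 4.3.3), with Benjamini-Hochberg adjustment over 6218 probe sets and a threshold of 0.05. The test was tried on simulated data. No detection calls were used, and the number of arrays limits the precision. Members and lists were chosen with earlier results of these data known. The genes named are all members, the first 3 of each pathway list with a probe set, list genes more than 2-fold apart, and the 3 most like the widest member. Bin1, Mapk8ip1, Klc1, Ttr, Nnat, Mobp and Csf1r, and cell type markers of the tissue check, were named outside this rule, after their values were seen. RefSeq promoter windows matched 6 of 7 members, Bace1 being the exception. The 1.5-fold counts and the promoter motifs were added after the values were seen. Protein sequences were not used here.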

Additional observations from a re-analysis of the deposited data

How the results depend on the processing

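In the main setting 0 members passed the limma variance test, 2 were more than 2-fold apart between arrays and 4 were above the threshold on all arrays. The count of 0 held under all alternatives tried (no further scaling, quantile normalization, cyclic loess, other floors and filters, a non-robust prior, each array left out). Adjusted p of App, Aplp2, Psen2 and Apbb1 ranged from 0.24 to 1.00 in limma over these alternatives, the non-robust prior excepted. The count of 2 held under the scalings, floors and filters and was 0 to 2 with 1 array left out, 0 without array 1 or array 2. Restricting the count of 4 to probe sets with the plain suffix gave 2, App and Apbb1, and a threshold at the 75th percentile gave 3, without Psen2. The median log2 range of measured member probe sets, 0.72, was 0.21 with no filter, which adds the probe sets of Aplp1 and Aplp2 that lie at or near the floor, and 0.16 to 0.64 with 1 array left out. The number of pathway genes more than 2-fold apart, 2, was 1 without further scaling, 13 with the filter at the 25th percentile, 12 with none, and 1 to 2 with 1 array left out. The sums of marker lists without their most variable gene were added after seeing the data. No paired analysis was possible because the arrays form 1 group. Signal near the floor limits what can be said of Aplp1, Mme and Adam17.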
